A study of Mus musculus with 27 samples.

Results

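Fibroblast growth factor (FGF) and platelet-derived growth factor (PDGF) signalling genes were followed across 3 lines of mK4 cells, a mouse line derived from the metanephric mesenchyme of the embryonic kidney. The set held 10 genes of the 24953 listed, taken by symbol from the deposited TPM table (a transcript level corrected for how long each gene is and for library size): the receptors Fgfr1, Fgfr2, Fgfr3, Pdgfra and Pdgfrb, and the ligands Fgf2, Fgf7, Fgf10, Pdgfa and Pdgfc. All 10 were found. Control mK4 cells were compared with Runx1KO cells, in which CRISPR-Cas9 with a guide on each side removed exon 3 of Runx1, and with ZebDKO cells, in which exon 2 of Zeb1 and exon 1 of Zeb2 were deleted in the mK4 background. RNA-seq covered 3 libraries a line, from cells in 10% fetal bovine serum at confluency by the labels and nearly so by the methods, while the ChIP-seq peaks (Runx1 and Runx2) and ATAC-seq peaks (open chromatin) came from control and Runx1KO cells, 3 samples each. Knockout lines were grown from picked clones and the number of clones sequenced is not given, so clone and genotype cannot be told apart, and p-values measure the spread between 3 cultures of each line. The TPM files keep no read number, so the depth of each library is unknown, and the methods give only a minimum for all samples.

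FGF receptors are receptor tyrosine kinases that bind FGF together with heparan sulfate and signal through FRS2, RAS and MAP kinases and through PI3 kinase. PDGF ligands act as dimers: the A and C chains bind mainly PDGFRα, while the B chain binds both PDGF receptors. In the developing kidney, FGF receptors act in the metanephric mesenchyme and the ureteric bud, and PDGF receptors mark stromal and mesangial progenitors.

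Libraries of the same line correlated at 0.994 to 0.996 and those of different lines at 0.912 to 0.927 (Pearson's r, log2(TPM+1), 13374 genes, given as a description), and no library stood apart from its line. Whole-gene Runx1 was at 15.6 to 18.7 TPM in control and 28.5 to 30.3 TPM in Runx1KO libraries. All ZebDKO libraries lay under all control libraries in Runx1, with a difference of -0.73 on log2(TPM+1), short of 2-fold. Zeb1 was at 14.2 to 15.6 TPM in control and 14.8 to 16.8 TPM in ZebDKO libraries, and Zeb2 at 4.9 to 5.5 TPM and 1.6 to 1.8 TPM. In Runx1KO libraries Zeb1 was at 0.1 to 0.2 TPM and Zeb2 at 0.2 TPM. Both knockout lines therefore differed from control in Zeb and in Runx1 transcripts. A TPM sums reads over the whole gene and does not check the deletion of 1 exon. In the paper, PCR genotyping showed the deletions, and Western blots showed loss of Runx1 protein in Runx1KO and of Zeb1 protein in ZebDKO cells. Zeb2 protein could not be detected with the antibodies available. Of 10 fixed markers of kidney mesenchyme and nephron progenitors, 5 reached a mean of 1 TPM in control cells, among them Pax2, Osr1 and Sall1, whereas the progenitor gene Six2 was listed at 0. Of 5 tested, 3 were called lower (5.1% of all genes) and 0 higher (7.91%) in Runx1KO cells. In ZebDKO cells 1 was called lower (7.28%) and 1 higher (7.49%). Mean Osr1 was 66.4 TPM in control, 0.4 TPM in Runx1KO and 18.2 TPM in ZebDKO cells. Gdnf stood at 12.7, 0.1 and 39.8 TPM, and Pax2 at 313.2, 470.0 and 222.1 TPM. Osr1 and Gdnf entered the Runx1KO test only through control libraries. The summed level of 6 epithelial markers ran from 2.1 to 4.1 TPM in control, from 2568 to 2649 TPM in Runx1KO and from 1144 to 1203 TPM in ZebDKO libraries, most of it Krt8. All 3 of those tested were called higher in Runx1KO cells and all 4 in ZebDKO cells. Of all genes, 7.91% and 7.49% were called higher. Krt18, Cldn4 and, in ZebDKO cells, Epcam entered the test only through the knockout libraries where they were high. Krt18 rose from at most 0.3 TPM in control to 31.2 to 34.6 TPM in Runx1KO and 37.4 to 46.5 TPM in ZebDKO libraries, and Cldn4 from at most 0.4 TPM to 223.8 to 237.2 TPM and 45.7 to 50.3 TPM. Epcam was at 26.7 to 28.8 TPM in ZebDKO libraries and listed at 0 in the other 6, and the epithelial cadherin Cdh1 stayed at or under 0.6 TPM throughout. The summed level of 7 fibroblast and mesenchyme markers ran from 4350.6 to 4570.3 TPM in control and from 3297.4 to 3359.2 TPM in Runx1KO libraries. In ZebDKO libraries it ran from 2601.2 to 2621.7 TPM, and most of it was Vim and S100a4 in all lines. Mean S100a4 was 1304.6 TPM in control, 354.6 TPM in Runx1KO and 235.0 TPM in ZebDKO cells, and Vim 2802.9, 2806.4 and 2089.4 TPM. Of 6 tested, 3 were called lower in Runx1KO and 2 in ZebDKO cells, where 5.1% and 7.28% of all genes were. At an adjusted p under 0.05 (limma) and any fold, 2 of the 6, Fn1 and Col1a1, were higher in ZebDKO cells. Of 8 fixed markers of renal stroma and pericytes, 4 were tested. In Runx1KO cells 1 was called higher and 1 lower (7.91% and 5.1% of all genes). In ZebDKO cells 2 were called higher and 0 lower (7.49% and 7.28%). Mean Acta2 was 7.13 TPM in control, 0.17 TPM in Runx1KO and 20.9 TPM in ZebDKO cells, and Mcam 12.8, 28.5 and 30.9 TPM. Acta2 entered the Runx1KO test only through control libraries. Markers of blood summed to at most 3.1 TPM and those of endothelium to at most 5.8 TPM. The part of these marker shifts in the results on receptors and ligands was not tested, and in bulk RNA fewer expressing cells and less RNA per cell cannot be told apart.

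In control cells the ligand Pdgfa was the most abundant of the 10 genes, with a mean of 59.1 TPM, followed by Pdgfc with 15.9 TPM and Fgfr2 with 12.5 TPM. Fgfr1 with 2.77 TPM, Pdgfrb with 1.47 TPM and Fgfr3 with 1.0 TPM came next, and none of these neighbours overlapped in range. Pdgfra, Fgf7, Fgf10 and Fgf2 stayed under 1 TPM in every library. In both knockout lines the mean of Fgfr2 was above that of Pdgfc, without overlap of their ranges. A further deposited table of 6 libraries (control and Runx1KO) ordered some genes differently in control cells, with 21.0 TPM of Fgfr2 above 16.2 TPM of Pdgfc, and 3.36 TPM of Fgfr3 above 1.39 TPM of Pdgfrb. Levels in that table were 0.95 to 3.36 times those of the 9-library table in control cells for the 6 genes at or above 1 TPM. The order between genes therefore depends on the table used, while differences between lines were taken within each table. The cause of the unlike levels was not tested.

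**Figure D1:**
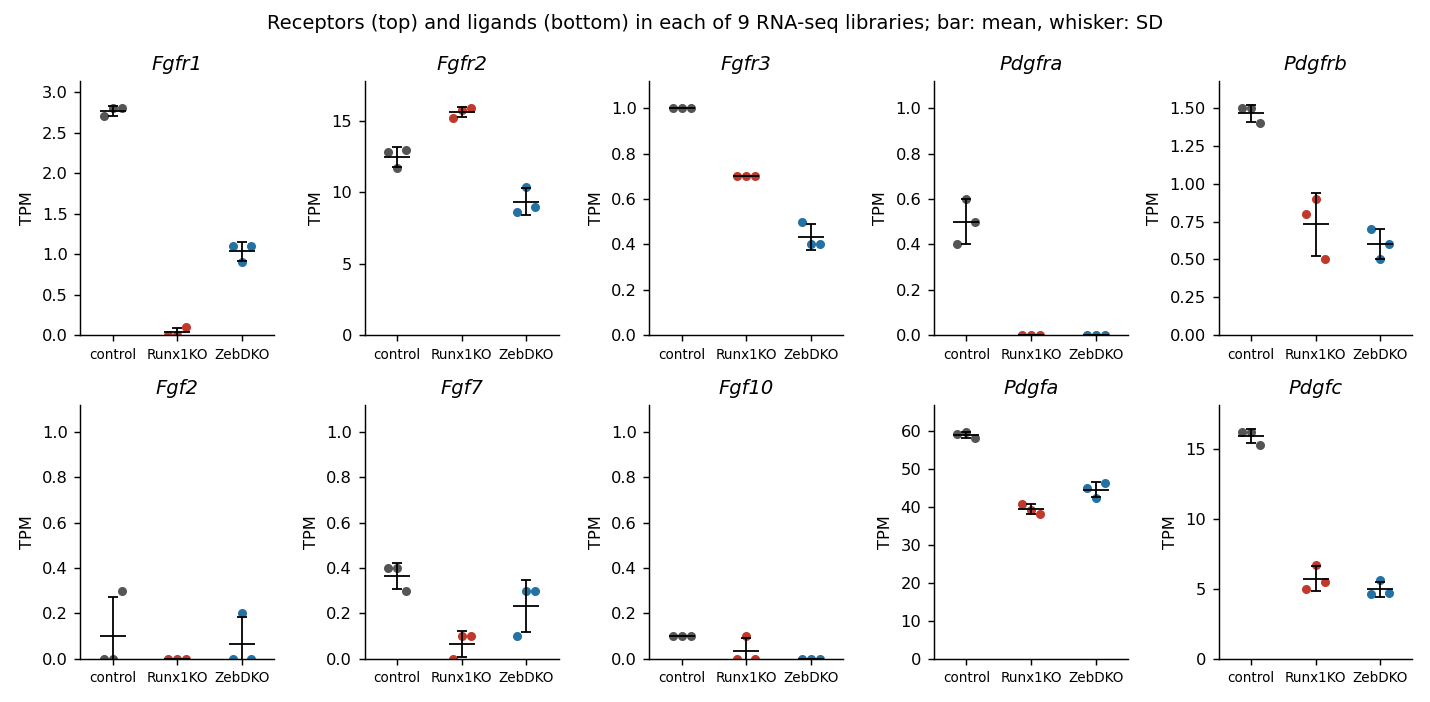
TPM (y axis, linear, from 0) of the 5 receptors and 5 ligands in the 3 libraries of each line, with the mean as a bar and the SD as a whisker. Fgfr1, Fgfr3, Pdgfra, Pdgfrb, Pdgfa and Pdgfc were lower in both knockout lines than in all control libraries, and Fgfr2 was highest in Runx1KO libraries. Fgf2, Fgf7, Fgf10 and Pdgfra lie under 1 TPM throughout.

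A gene entered the test of a comparison when 3 or more of its 6 libraries reached 1 TPM, and was called when it differed past 2-fold on log2(TPM+1) at an adjusted p under 0.05 (limma). With 1 TPM added, changes of weakly expressed genes come out too small. Of the 10 genes, 6 were tested in Runx1KO against control cells: 2 were called lower, Fgfr1 and Pdgfc, and 0 higher, where 5.1% of all 13067 genes tested were called lower, 7.91% higher and 13% in either direction. In ZebDKO against control cells 6 were tested and 1 was called lower, Pdgfc, where 7.28% of all 12974 genes tested were called lower, 7.49% higher and 14.8% in either direction. At an adjusted p under 0.05 and any fold, 1 of the 6 was higher and 5 lower in Runx1KO cells, where 30.4% of all genes were higher and 40.1% lower, and 0 were higher and 6 lower in ZebDKO cells, where 26.9% were higher and 52.5% lower. The libraries of all 6 tested genes did not overlap those of control cells in either knockout, which also held for 73.7% of all genes in Runx1KO and 81% in ZebDKO cells, so a lack of overlap does not set these genes apart. Between both knockouts 3 were tested and 0 were called (limma, with 2 at an unadjusted p under 0.05), where 9.2% of all 13071 genes tested were called higher in Runx1KO cells, 6.59% lower and 15.8% in either direction. At an adjusted p under 0.05, 1 of these 3 was higher and 1 lower in Runx1KO cells, where 50.2% of all genes were higher and 29.8% lower, and the groups did not overlap for 2 of the 3, against 81.7% of all genes. Fgfr1, Fgfr3 and Pdgfrb passed the filter through the control libraries, so their lower levels in the knockouts bear on their own values only. Fgf2, Fgf7, Fgf10 and Pdgfra were not tested. Both knockouts were set against the same 3 control libraries, so their differences from control are not independent of each other.

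**Figure D2:**
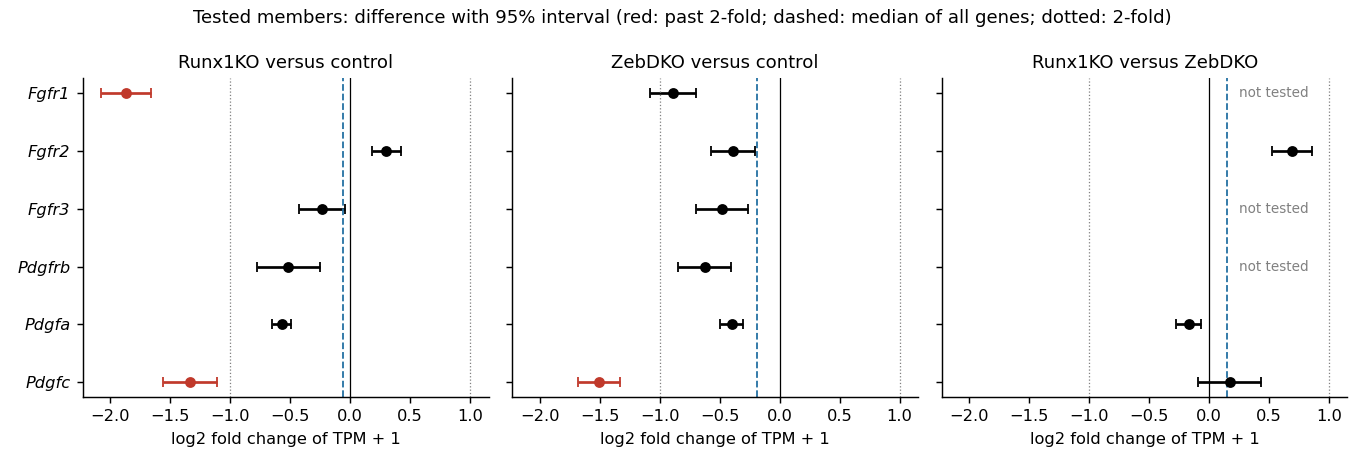
Log2 fold change on TPM + 1 (x axis) with its 95% interval for the 6 genes tested, in the 3 comparisons; red points are past 2-fold, dotted lines mark 2-fold, and the dashed line is the median of all genes tested. Fgfr1 (-1.87) and Pdgfc (-1.34) were past 2-fold in Runx1KO cells and Pdgfc (-1.51) in ZebDKO cells, while Fgfr2 in Runx1KO cells (0.30) was the only point above 0 in either comparison with control cells.

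Fgfr1, which with Fgfr2 serves the metanephric mesenchyme, was at 2.7, 2.8 and 2.8 TPM in control libraries, at 0.0, 0.0 and 0.1 TPM in Runx1KO libraries and at 1.1, 0.9 and 1.1 TPM in ZebDKO libraries. The 3 lines did not overlap, and Runx1KO cells were lowest. The log2 fold change was -1.87 ± 0.087 (SE, n = 3 against 3, adjusted p = 2.00e-06) in Runx1KO cells. In the 6-library table, control libraries held 4.22, 5.05 and 4.87 TPM and Runx1KO libraries 0.02, 0.08 and 0.19 TPM. In ZebDKO cells the difference was -0.89 ± 0.082 (adjusted p = 3.86e-05) and fell short of 2-fold with 1 TPM added; it passed 2-fold with 0.5 TPM added (-1.09) and with 0.1 TPM added (-1.34). Between both knockouts Fgfr1 was under the filter and so was not tested there; without a filter, Runx1KO cells were lower by -0.98 on the log2 scale (adjusted p = 7.00e-05).

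Fgfr2, the receptor of FGF7 and FGF10 in its epithelial splice form, was higher than control in Runx1KO cells and lower in ZebDKO cells. It was at 12.8, 11.7 and 13.0 TPM in control, at 15.2, 15.8 and 15.9 TPM in Runx1KO and at 8.6, 10.4 and 9.0 TPM in ZebDKO libraries, and no pair of lines overlapped. The mean in Runx1KO cells was 1.25 times that of control cells (log2 fold change 0.30 ± 0.052, adjusted p = 0.00158). The mean in ZebDKO cells was 0.747 times that of control cells (-0.39 ± 0.079, adjusted p = 0.00255). Compared directly, Runx1KO cells held 1.68 times the TPM of ZebDKO cells (log2 difference 0.69 ± 0.070, 95% interval 0.52 to 0.86, adjusted p = 6.33e-05). The median of all genes was itself at -0.18 in ZebDKO against control cells; with median-ratio scaling, which brings it to 0.00, the difference of Fgfr2 in ZebDKO cells was -0.21 (adjusted p = 0.0323), and with quantile normalization -0.17 (adjusted p = 0.0594), whereas the direct difference was 0.54 and 0.46. TPM does not separate the splice forms of FGF receptors.

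Fgfr3 was at 1.0 TPM in all 3 control libraries, at 0.7 TPM in all 3 Runx1KO libraries and at 0.5, 0.4 and 0.4 TPM in ZebDKO libraries. The equal values come from rounding to 1 decimal, so the spread is not resolved in this table. The log2 fold change was -0.23 ± 0.081 (adjusted p = 0.0351) in Runx1KO and -0.48 ± 0.092 (adjusted p = 0.00186) in ZebDKO cells. Without any 1 of the 6 libraries the adjusted p in Runx1KO cells was 0.0564 to 0.0666. The 6-library table, with 2 decimals, gave 3.33, 3.38 and 3.37 TPM in control and 2.65, 2.46 and 2.43 TPM in Runx1KO libraries. There the log2 fold change was -0.31 (limma, adjusted p = 0.00629). Fgfrl1, an FGF receptor without a kinase domain, was at 18.5 to 20.1 TPM in control, at 34.1 to 37.9 TPM in Runx1KO and at 25.0 to 26.5 TPM in ZebDKO libraries. It was higher in both lines (log2 fold change 0.87, adjusted p = 7.72e-06, and 0.39, adjusted p = 0.000187), short of 2-fold. Fgfr4 stayed at or under 0.6 TPM.

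Peaks were assigned to a gene when they lay in its regulatory domain, from 5 kb upstream to 1 kb downstream of its start and on to the neighbouring genes' domains, at most 1000 kb away. ATAC-seq peaks had been sorted by the authors into regions that close in Runx1KO cells, regions that open and stable regions. The methods describe peak calling on combined ChIP-seq replicates, whereas the peak names of each ChIP-seq list carry a single library, so how many replicates stand behind a Runx peak is uncertain. Each list is 1 set without values per replicate, so no peak count below has a test. Of the 10 genes, 9 had at least 1 closing region in the domain, where 36.2% of 10709 expressed genes had one, and 6 had an opening region, where 44.0% of those genes had one. The domains of the 10 genes ran from 60.7 to 1016 kb, while the median over the expressed genes was 86.3 kb, and a long domain holds more peaks. Closing regions that overlapped a Runx peak lay near 5 of the 10 genes (Fgfr1, Fgfr2, Fgf7, Pdgfra and Pdgfa), against 17.0% of expressed genes, and opening ones near 1, Fgfr2, against 4.61%. Stable regions lay in the domains of 8 of the 10 genes (95.6% of expressed genes), Runx1 peaks of control cells in 6 (48.2%), Runx2 peaks of control cells in 8 (73.0%) and Runx2 peaks of Runx1KO cells in 6 (72.9%). The genes without a stable region were Fgf2 and Pdgfra, both outside the expressed genes. Sequences shown are the 151 bases around the summit of the Runx2 peak of control cells, in mm9 on the plus strand, with TGTGGT (the core Runx motif) or its complement ACCACA in capitals. Of all control Runx2 windows of this length, 59.9% in closing, 40.2% in opening and 27.5% in stable regions held these letters.

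Fgfr1 (ENSMUSG00000031565.10) is a plus-strand gene on chromosome 8 (26629264 to 26686186). None of the ATAC-seq peaks covered its start, and the nearest lay -52.81 kb and 56.37 kb from it, both stable. Its domain held 3 closing, 4 opening and 12 stable regions, most of them far upstream. The closing region with Runx2 lay at -224 kb from the start, outside annotated genes, from 26404873 to 26405235, with a Runx2 peak in control cells (6.10-fold over background) that was also listed in Runx1KO cells (4.88-fold) and no Runx1 peak. It is shown because it is the closing region with a Runx peak in the domain of the receptor with the largest fall. That domain ended 312.3 kb upstream, so the region lay closer to its end than to the start of Fgfr1. The window at chr8:26405028-26405178 held 1 match.
Fgfr1 closing region: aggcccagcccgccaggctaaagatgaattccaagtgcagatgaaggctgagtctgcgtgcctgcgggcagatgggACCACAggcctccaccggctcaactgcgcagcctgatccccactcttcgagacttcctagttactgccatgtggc

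Fgfr2 (ENSMUSG00000030849.10, chromosome 7, 137307223 to 137409705, minus strand) had 19 closing, 4 opening and 11 stable regions, and a stable region covered the start of the transcript used here, Fgfr2-004, together with a Runx2 peak of control cells (3.54-fold). No ATAC-seq or Runx peak covered the RefSeq start at 137410322. A group of 11 closing regions lay between 406.5 and 612.1 kb downstream, past the end of the gene. The strongest Runx overlap among closing regions lay 612 kb downstream, with Runx1 at 7.58-fold and Runx2 at 6.43-fold in control cells and Runx2 at 4.69-fold in Runx1KO cells. The only closing region with a Runx peak inside the gene lay in intron 6, 50.35 kb past the start. It overlapped a Runx2 peak of Runx1KO cells (5.08-fold) and no Runx peak of control cells. The single opening region with a Runx peak lay inside the gene, from 137320363 to 137321556 across exon 13 of transcript Fgfr2-004, with Runx1 (4.67-fold) and Runx2 (5.82-fold) in control cells and Runx2 (4.88-fold) in Runx1KO cells. Both windows are shown because the same Runx factors were listed at a region that closed and at one that opened in the domain of this gene. That domain ended 673.3 kb downstream, so the closing region shown lay far closer to its end than to the start of Fgfr2. The closing window lies at chr7:136797586-136797736 and the opening window at chr7:137320699-137320849, in intron 13, with 1 match each.
Fgfr2 closing region: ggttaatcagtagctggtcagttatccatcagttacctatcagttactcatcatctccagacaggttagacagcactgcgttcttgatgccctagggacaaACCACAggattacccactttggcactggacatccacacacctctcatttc
Fgfr2 opening region: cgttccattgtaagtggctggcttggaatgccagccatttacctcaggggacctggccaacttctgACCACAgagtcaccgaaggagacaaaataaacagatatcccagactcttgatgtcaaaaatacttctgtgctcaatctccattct

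Fgfr3 (ENSMUSG00000054252.9, chromosome 5, 34064373 to 34079712) had 1 stable region, over its start, and no closing or opening region.

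**Figure D3:**
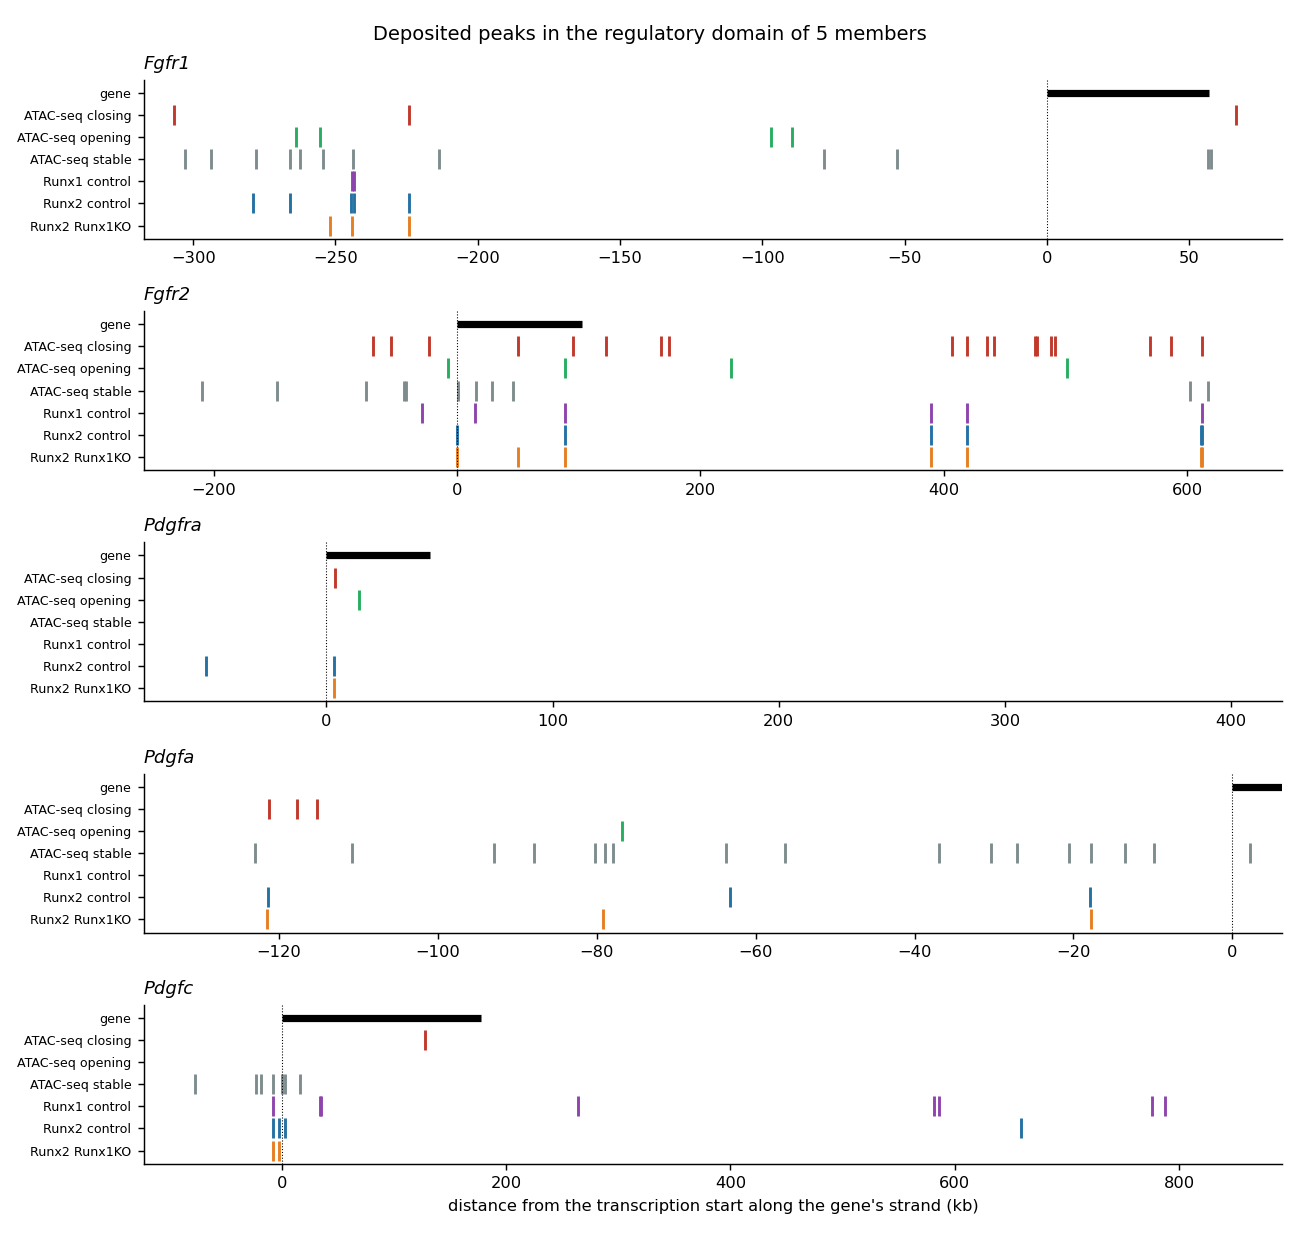
Deposited peaks along the regulatory domains of Fgfr1, Fgfr2, Pdgfra, Pdgfa and Pdgfc, by distance from the transcription start in kb along the gene's strand (x axis, 0 at the start); each tick is 1 peak of the list named on the y axis and the black bar is the gene. Closing regions of Fgfr2 gather past 400 kb downstream, the nearest ATAC-seq peak upstream of Fgfr1 lies at -52.81 kb, and the closing region of Pdgfra lies 3.9 kb past the start on a Runx2 peak.

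Pdgfra, the receptor of PDGF-AA and PDGF-CC, was at 0.4, 0.6 and 0.5 TPM in control libraries and was listed at 0 in all 6 knockout libraries. In the 6-library table it was at 0.79, 1.49 and 1.14 TPM in control and at 0.00, 0.06 and 0.00 TPM in Runx1KO libraries. Every control library was above every knockout library in both tables. The gene was under the filter and was not tested. Without a filter, the log2 fold change was -0.58 against control cells in both lines (limma, adjusted p = 0.000354 in Runx1KO and 0.000296 in ZebDKO cells). The knockout values are 0 after rounding, so their spread is not resolved and these p-values are uncertain. Pdgfra (ENSMUSG00000029231.9) is a plus-strand gene on chromosome 5 (75548316 to 75594229). Its domain of 493 kb held 1 closing, 1 opening and 0 stable regions. The closing region, from 75551755 to 75552678, lay in the first intron of Pdgfra-201 and over the start of the shorter transcript Pdgfra-202 at 75552191. A Runx2 peak overlapped it in control cells (6.65-fold) and in Runx1KO cells (6.05-fold), and no Runx1 peak was listed. It is shown because it is the single region of the set that closed over an annotated start; the window at chr5:75551708-75551858 holds 0 matches.
Pdgfra closing region: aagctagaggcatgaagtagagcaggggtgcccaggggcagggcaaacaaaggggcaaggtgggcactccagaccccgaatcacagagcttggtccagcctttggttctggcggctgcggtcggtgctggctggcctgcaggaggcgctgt

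Pdgfrb, the receptor of the B chain on pericytes and mesangial cells, was at 1.5, 1.5 and 1.4 TPM in control, at 0.8, 0.9 and 0.5 TPM in Runx1KO and at 0.7, 0.5 and 0.6 TPM in ZebDKO libraries. Both knockouts lay under all control libraries and overlapped each other. The log2 fold change was -0.52 ± 0.112 (adjusted p = 0.00482) in Runx1KO and -0.63 ± 0.093 (adjusted p = 0.000491) in ZebDKO cells, short of 2-fold on this scale, with means 0.5 and 0.409 times that of control cells. With 0.1 TPM added the difference in ZebDKO cells passed 2-fold (-1.17). Pdgfrb lies on chromosome 18 with 1 closing, 3 opening and 3 stable regions and 0 Runx peaks in its domain. The closing region lay 2.49 kb past the start, in the first intron.

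Pdgfc, a ligand that proteases must cleave before it binds PDGFRα, was at 16.2, 16.2 and 15.3 TPM in control libraries. It was at 5.0, 6.7 and 5.5 TPM in Runx1KO and at 4.6, 5.6 and 4.7 TPM in ZebDKO libraries, so both knockouts lay under all control libraries and overlapped each other. Control cells held 2.77 times the TPM of Runx1KO cells (log2 fold change -1.34 ± 0.093, adjusted p = 1.56e-05) and 3.20 times that of ZebDKO cells (-1.51 ± 0.076, adjusted p = 1.99e-06). The 6-library table gave 16.00, 16.85 and 15.82 TPM in control and 5.09, 6.59 and 5.32 TPM in Runx1KO libraries. Compared directly, the lines differed by 0.17 ± 0.110 (95% interval -0.09 to 0.43, adjusted p = 0.189), with the sign turned under quantile normalization (-0.074). A 2-fold difference between the knockouts lies outside that interval.

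Pdgfc (ENSMUSG00000028019.3) is a plus-strand gene on chromosome 3 (80840338 to 81017962), and a stable region covered its start. Its domain of 1005 kb held 1 closing region, in the second intron and without a Runx peak, 0 opening and 7 stable regions. Runx peaks were listed all the same, with 8 of Runx1 and 4 of Runx2 in control cells and 2 of Runx2 in Runx1KO cells.

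Pdgfa, whose A chain binds PDGFRα, was at 59.2, 59.8 and 58.2 TPM in control, at 40.8, 39.3 and 38.3 TPM in Runx1KO and at 44.9, 42.4 and 46.3 TPM in ZebDKO libraries, and the 3 lines did not overlap. The mean was 0.668 times that of control cells in Runx1KO cells (log2 fold change -0.57 ± 0.034, adjusted p = 7.12e-06) and 0.754 times in ZebDKO cells (-0.40 ± 0.042, adjusted p = 7.07e-05). With median-ratio scaling the difference in ZebDKO cells was -0.21 (adjusted p = 0.00426). Between both knockouts, Runx1KO cells were lower by -0.17 ± 0.044 (adjusted p = 0.0088), and by -0.32 with median-ratio scaling. The domain of Pdgfa (ENSMUSG00000025856.9, chromosome 5, 139452925 to 139473324, minus strand) held 3 closing, 1 opening and 17 stable regions. A stable region covered the RefSeq starts at 139470235 and 139470898, while none of the ATAC-seq peaks covered the start of Pdgfa-003 at 139473324, the outermost in the annotation. All 3 closing regions lay upstream, between -121 and -115 kb, within the neighbouring gene Prkar1b, and 1 of them overlapped Runx2 peaks of control (3.09-fold) and Runx1KO cells (2.67-fold).

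The FGF ligands of the set were near the lower limit of the table. Fgf7, a mesenchymal ligand of epithelial FGFR2, was at 0.4, 0.4 and 0.3 TPM in control, at 0.0, 0.1 and 0.1 TPM in Runx1KO and at 0.1, 0.3 and 0.3 TPM in ZebDKO libraries; Runx1KO libraries lay under all control libraries, and ZebDKO libraries overlapped them. Fgf10, another ligand of the epithelial form, was at 0.1 TPM in all 3 control libraries, at 0.0, 0.1 and 0.0 TPM in Runx1KO libraries and listed at 0 in ZebDKO libraries. Fgf2 was seen in 1 control library at 0.3 TPM and in 1 ZebDKO library at 0.2 TPM, and was listed at 0 in the other 7. These steps of 0.1 TPM are the table's rounding, and no difference in Fgf2 or Fgf10 could be read at this resolution. The domain of Fgf7 held 3 closing and 3 stable regions, all of the closing ones inside the neighbouring gene Galk2, and 2 of them overlapped Runx2 peaks of control cells, the stronger at -86.2 kb from the start (5.62-fold). The domain of Fgf10 held 22 opening regions, from 362.3 to 694.2 kb downstream, of which 7 lay in the neighbouring gene Nnt, and the gene itself stayed at or under 0.1 TPM.

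Of the ligands outside the set, Fgf9 and Fgf15 in Runx1KO cells and Fgf1 and Pdgfb in ZebDKO cells had larger log2 fold changes with 1 TPM added than Pdgfc, while the others named here did not. Fgf1, which binds every FGF receptor, was at 5.7 to 7.6 TPM in control, at 14.2 to 15.8 TPM in Runx1KO and at 53.6 to 54.4 TPM in ZebDKO libraries (log2 fold changes 1.09 ± 0.10, adjusted p = 5.83e-05, and 2.89 ± 0.09, adjusted p = 2.08e-07). Fgf9, a survival factor of nephron progenitors, was listed at 0 in control libraries and was at 6.4, 6.2 and 6.0 TPM in Runx1KO and at 0.2, 0.3 and 0.5 TPM in ZebDKO libraries. Pdgfb, the ligand of both PDGF receptors, was at 66.7 to 69.7 TPM in control and 69.1 to 77.8 TPM in Runx1KO libraries, and at 432.3, 395.9 and 400.7 TPM in ZebDKO libraries (log2 fold change 2.57 ± 0.04, adjusted p = 1.61e-08). ZebDKO libraries lay far above the other 6, and in Runx1KO cells the difference from control was 0.11 ± 0.05 (adjusted p = 0.078). Pdgfb was above Pdgfa in every library of this table, while in the 6-library table the order was reversed, with 34.5 to 36.8 TPM of Pdgfb and 86.1 to 98.5 TPM of Pdgfa in control libraries.

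Fgf18, an FGF with roles in bone and lung, was at 9.4 to 9.9 TPM in control, at 17.8 to 19.5 TPM in Runx1KO and at 2.9 to 4.6 TPM in ZebDKO libraries. Compared directly, Runx1KO cells were higher by 1.98 ± 0.14 on the log2 scale (adjusted p = 9.71e-06). Fgf15 was at 3.1 to 3.4 TPM in Runx1KO libraries and at most 0.1 TPM in the others. Fgf21 rose in both lines, from 1.0 to 1.8 TPM in control to 3.6 to 4.8 TPM in Runx1KO and 4.3 to 5.2 TPM in ZebDKO libraries. The hormone Fgf23 was at 1.1 to 1.8 TPM in control and was listed at 0 in all knockout libraries. Of the 15 other FGF ligands, 6 were tested in Runx1KO cells, with 4 called higher and 1 lower (median log2 fold change 1.15 against -0.06 for all genes), and 4 in ZebDKO cells, with 2 higher and 2 lower. These and the following counts stand beside 7.91% of all genes called higher and 5.1% lower in Runx1KO cells, and 7.49% and 7.28% in ZebDKO cells. Fgf9, Fgf15 and Fgf23 passed the filter only through the lines where they were high. The call of Fgf18 in ZebDKO cells (-1.11) fell short of 2-fold with median-ratio scaling (-0.94).

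**Figure D4:**
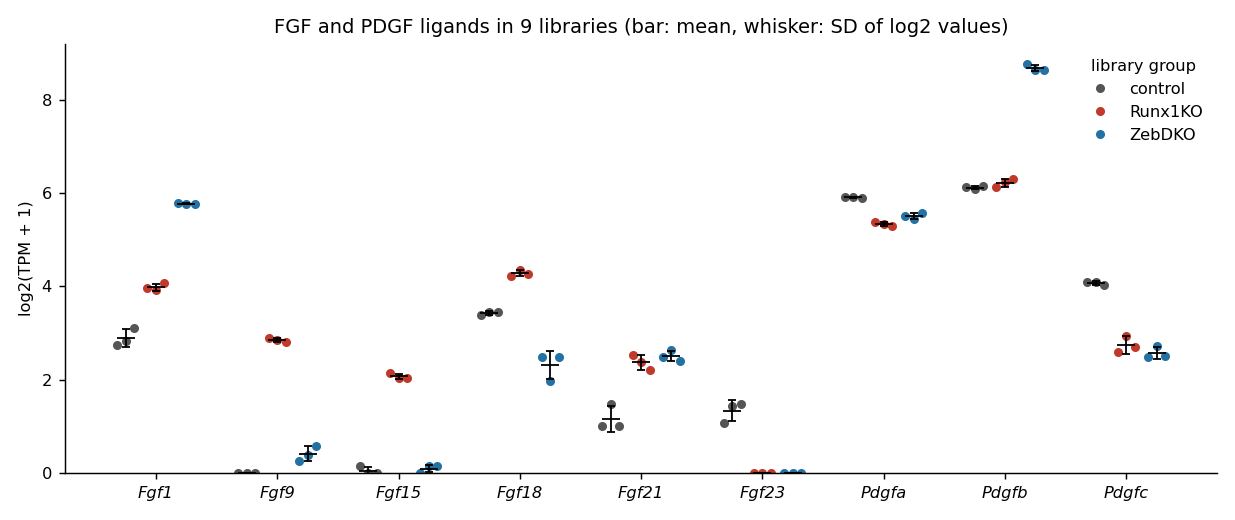
Levels of 9 FGF and PDGF ligands as log2(TPM + 1) (y axis, from 0) in the 3 libraries of each line, with the mean as a bar and the SD of the log2 values as a whisker. Fgf1 and Pdgfb stand highest in ZebDKO libraries, Fgf9 and Fgf15 in Runx1KO libraries, and Pdgfa and Pdgfc in control libraries.

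Of 5 proteins that release or process the ligands, 2 were called higher and 1 lower in Runx1KO cells and 3 higher and 1 lower in ZebDKO cells, and Furin was called in neither. Fgfbp1, a carrier that frees FGF from the matrix, rose from 0.1 to 0.2 TPM in control to 29.1 to 31.6 TPM in Runx1KO and 3.1 to 3.9 TPM in ZebDKO libraries (log2 fold changes 4.73 ± 0.07, adjusted p = 9.31e-09, and 1.94 ± 0.10, adjusted p = 2.37e-06). Fgfbp3 fell in ZebDKO cells from 14.9 to 15.8 TPM to 3.0 to 3.2 TPM (-1.99 ± 0.06, adjusted p = 1.37e-07). Plat, the tissue plasminogen activator that cleaves PDGF-CC, rose in both lines, to 285.4 to 303.3 TPM in Runx1KO and 144.3 to 151.7 TPM in ZebDKO libraries from 65.8 to 76.3 TPM in control, opposite to its substrate Pdgfc. Plau, the urokinase that activates PDGF-DD, was at 3.2 to 5.5 TPM in control, at 0.0 to 0.2 TPM in Runx1KO and at 9.4 to 10.6 TPM in ZebDKO libraries, and Pdgfd itself was listed at 0 in all 9. Fgfbp1 in both comparisons and Plau in Runx1KO cells passed the filter only through the lines where they were high.

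Heparan sulfate genes were called for 1 editing enzyme and a few core proteins. Sulf2, which removes sulfate groups from heparan sulfate outside the cell, fell from 51.9 to 53.5 TPM in control to 0.3 to 0.4 TPM in Runx1KO and 6.1 to 6.4 TPM in ZebDKO libraries (log2 fold changes -5.30 ± 0.05, adjusted p = 2.71e-09, and -2.90 ± 0.04, adjusted p = 1.02e-08). It was the only one of 10 tested synthesis and editing genes to be called in either line. In the comparison of Runx1KO with control cells, Sulf2 passed the filter only through the control libraries, where it was high. Sdc3, a syndecan, fell to 0.9 to 1.0 TPM in Runx1KO cells from 7.4 to 7.9 TPM and rose to 15.9 to 17.0 TPM in ZebDKO cells. Gpc1, the most abundant of the core proteins named here, fell in Runx1KO cells from 534.1 to 540.8 TPM to 255.3 to 274.8 TPM (-1.03, and -0.97 with median-ratio scaling). Gpc4 rose in Runx1KO cells (1.02 ± 0.03, adjusted p = 3.38e-07) and Agrn in ZebDKO cells (1.17 ± 0.07, adjusted p = 5.32e-06). Of 10 core proteins tested, 1 was called higher and 2 lower in Runx1KO cells, and 2 higher and 0 lower in ZebDKO cells.

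Of 20 adaptors and effectors inside the cell, 1 was called lower in Runx1KO cells and 3 in ZebDKO cells, where 5.1% and 7.28% of all genes were called lower, and 0 were called higher in either (limma). Pik3r1, the regulatory subunit of PI3 kinase, was at 18.4 to 23.4 TPM in control, at 5.2 to 5.9 TPM in Runx1KO and at 6.0 to 6.9 TPM in ZebDKO libraries (log2 fold changes -1.75 ± 0.09, adjusted p = 4.34e-06, and -1.59 ± 0.10, adjusted p = 4.51e-06). The FGF receptor docking proteins Frs2 and Frs3 were called lower in ZebDKO cells, Frs2 from 43.1 to 47.4 TPM to 20.8 to 24.2 TPM (adjusted p = 6.39e-06, but -0.81 and so short of 2-fold with median-ratio scaling) and Frs3 from 8.2 to 8.7 TPM to 2.6 to 3.0 TPM (-1.30 ± 0.07, adjusted p = 2.61e-06).

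Of 13 feedback regulators tested, 4 were called higher and 1 lower in Runx1KO cells, 2 higher and 0 lower in ZebDKO cells, and 3 higher and 2 lower in Runx1KO against ZebDKO cells. Spry1, a Sprouty inhibitor of receptor tyrosine kinase signalling, rose in Runx1KO cells from 11.5 to 14.2 TPM to 29.8 to 32.8 TPM and was at 6.7 to 7.7 TPM in ZebDKO cells. Spry4 was at 3.1 to 3.2 TPM in control, at 3.5 to 3.9 TPM in Runx1KO and at 18.1 to 20.2 TPM in ZebDKO libraries. The direct differences, Runx1KO minus ZebDKO, were 1.95 ± 0.06 for Spry1 (adjusted p = 2.39e-07) and -2.08 ± 0.06 for Spry4 (adjusted p = 1.78e-07). Dusp6, the ERK phosphatase induced by FGF signalling, was at 127.2 to 141.9 TPM in control, at 368.9 to 376.7 TPM in Runx1KO and at 121.2 to 133.0 TPM in ZebDKO libraries (direct difference 1.56 ± 0.04, adjusted p = 7.67e-08). Dusp5, another ERK phosphatase, rose in Runx1KO cells (1.57 ± 0.06, adjusted p = 6.53e-07). Flrt2 and Flrt3, membrane proteins that bind FGF receptors, parted in Runx1KO cells: Flrt2 was at 3.5 to 4.3 TPM in control and listed at 0 in Runx1KO libraries, while Flrt3 went from 0.3 to 0.4 TPM to 5.7 to 7.1 TPM, so both passed the filter only through the line where they were high.

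Among the 10 target genes, 1 was called higher in Runx1KO cells and 4 higher and 1 lower in ZebDKO cells, with 1 higher and 3 lower in Runx1KO against ZebDKO cells. Fos, an immediate early gene, was at 400.1 to 421.7 TPM in control and 1467 to 1549 TPM in Runx1KO libraries (log2 fold change 1.86 ± 0.03, adjusted p = 1.72e-08). Myc was at 38.6 to 40.6 TPM in control, at 49.6 to 56.5 TPM in Runx1KO and at 179.7 to 188.3 TPM in ZebDKO libraries (2.18 ± 0.04, adjusted p = 1.70e-08, in ZebDKO cells). Etv1, an ETS factor induced by FGF signalling, fell in ZebDKO cells from 3.8 to 4.1 TPM to 1.0 to 1.1 TPM (-1.28 ± 0.07, adjusted p = 3.90e-06). Fosl1 and Ier3 rose past 2-fold in ZebDKO cells (1.22 and 1.21), where in Runx1KO cells they stood at 0.16 and 0.08. Esrp1, which drives the epithelial splice forms of FGF receptors, was listed at 0 in control, at 1.0, 1.2 and 1.3 TPM in Runx1KO and at 0.2 TPM in all 3 ZebDKO libraries.

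Over the 101 other genes of both pathways, 79 were tested in Runx1KO cells, with 13 called higher and 7 lower (7.91% and 5.1% of all genes) and a median log2 fold change of -0.02 against -0.06 for all genes. In ZebDKO cells 76 were tested, with 14 called higher and 8 lower (7.49% and 7.28% of all genes) and a median of -0.09 against -0.18. Between both knockouts 78 were tested, with 9 higher and 11 lower in Runx1KO cells (9.2% and 6.59% of all genes). None of the called genes changed sign with median-ratio scaling or quantile normalization. Scaling moved the share of higher calls among all called genes in ZebDKO cells from 50.7% to 64% and in the direct comparison from 58.3% to 46.6% (median-ratio).

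**Figure D5:**
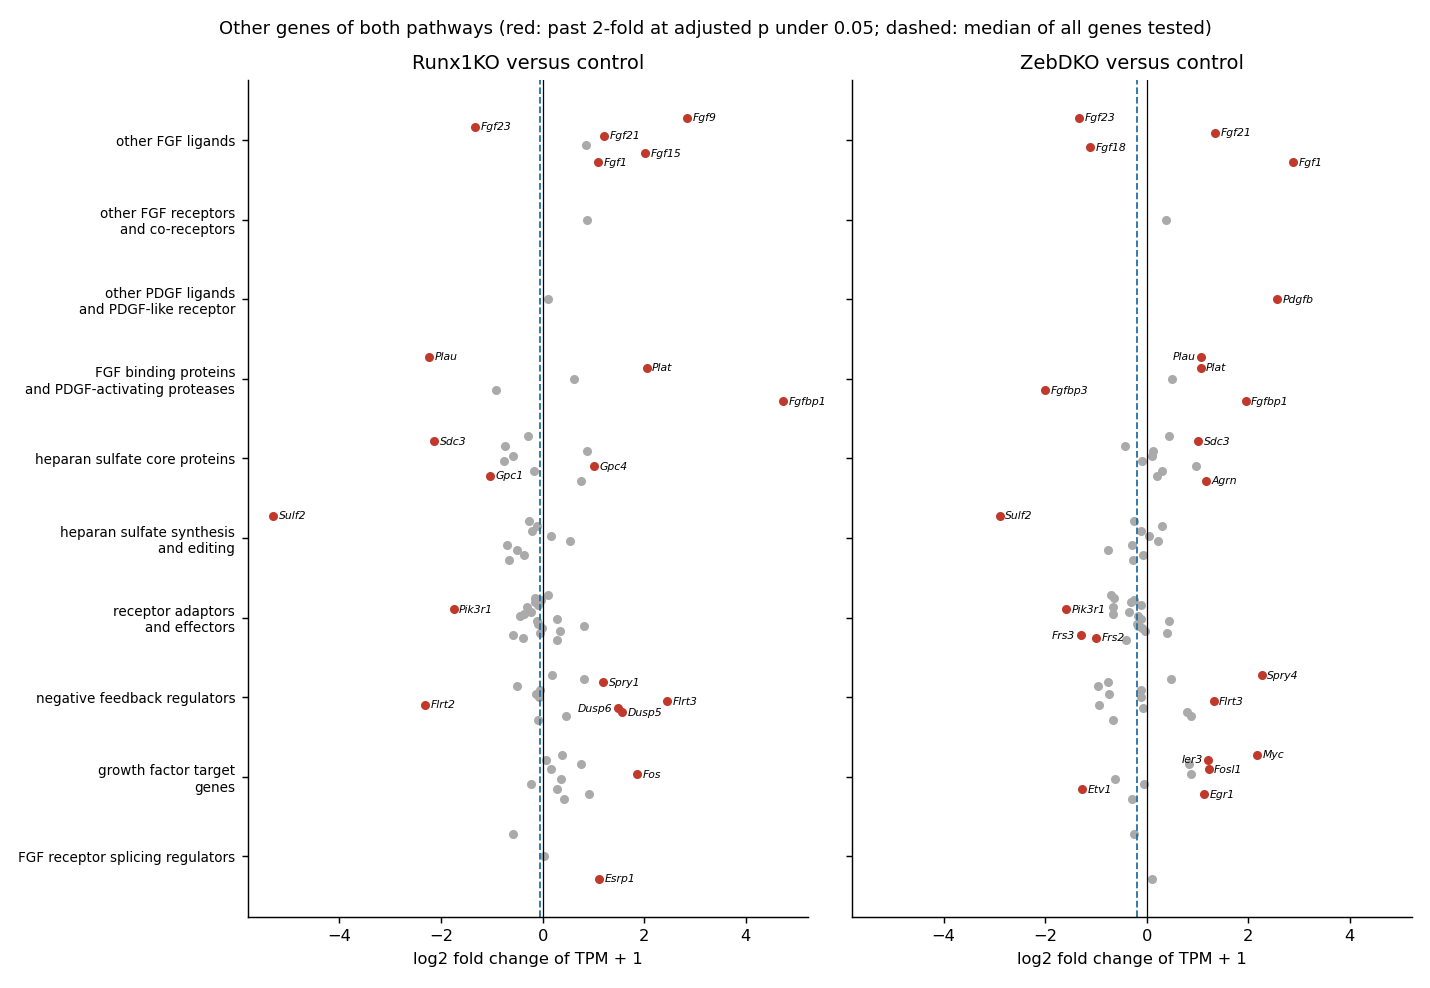
Log2 fold change on TPM + 1 (x axis) of each tested gene of the other pathway lists (y axis) in Runx1KO and ZebDKO against control cells; red, named points are past 2-fold at an adjusted p under 0.05, and the dashed line is the median of all genes tested. Sulf2 and Fgfbp1 lie at the ends in Runx1KO cells (-5.30 and 4.73), and in ZebDKO cells Sulf2 (-2.90) is lowest and Fgf1 (2.89) and Pdgfb (2.57) are highest.

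Genes whose pattern was most like Fgfr1 and Pdgfc, the receptor and the ligand with the widest range of means between lines, were ranked by Pearson's r on log2(TPM+1) over the 9 libraries, given as a description since the libraries share 3 lines. For Fgfr1 they were H1fx (0.9988), Twist2 (0.9985) and Pknox2 (0.9969). H1fx, a linker histone, was at a mean of 35.0 TPM in control, 0.233 TPM in Runx1KO and 6.53 TPM in ZebDKO cells, and the mesenchymal factor Twist2 at 914.7, 350.8 and 570.5 TPM. For Pdgfc they were Snap23 (0.9957), Helb (0.9949) and Hspe1 (0.9945), of which Snap23 stood at a mean of 31.5, 22.6 and 21.6 TPM.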

How the data were processed

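The 10 genes and all gene lists were chosen with earlier results of these data known. Per the methods, the steps before the tables were Trim Galore, STAR (mm9), duplicate removal by sambamba and featureCounts v1.6.2 over RefSeq genes. The authors deposited TPM with 1 decimal for 9 libraries and 2 decimals for 6, without stating gene lengths. Strand use in counting is not given in the sources used here. Per the methods, ChIP-seq peaks were called by the authors with MACS2 on combined replicates as broad peaks, although the deposited lists have narrow-peak columns and 1 library in their peak names, less peaks of the Runx1 antibody in Runx1KO cells; fold over background and -log10 q-values are used as deposited. ATAC-seq peaks were present in at least 2 of 3 replicates and were split by the authors; their columns of fold change and significance were not used.

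Log2(TPM+1) of genes that reached 1 TPM in 3 or more of 6 libraries went into limma 3.58.1 in R 4.3.3 (trend in the prior variance, two-sided, Benjamini-Hochberg over all genes tested), called past 2-fold at an adjusted p under 0.05. The fit was tested on simulated data without rounding, drawn from genes with control levels above those of Fgfr3 and Pdgfrb. That test therefore does not cover values near the lower limit. Named are all 10 genes, up to 3 called genes of each list and comparison with the largest change, direct partners of a member, and the 3 genes most like a member. Gene models were those of GENCODE vM1 on mm9, 1 protein-coding transcript a gene, and RefSeq starts (GRCm38.p6) were placed by exact match of their promoters, which were listed for 8 of the 10 genes. Sequences were read with pysam 0.24.0.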

Additional observations from a re-analysis of the deposited data

Results flagged for a closer look

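Both genes were taken up because the knockouts differed at an adjusted p under 0.05 in the direct test, which does not use the shared control libraries. Of all genes, 50.2% were higher and 29.8% lower in Runx1KO cells at this limit, and 81.7% did not overlap. The limit and the lack of overlap therefore do not set both genes apart. The median log2 difference of all genes was 0.15. Fgfr2 was higher in Runx1KO than in ZebDKO cells by 0.69 on the log2 scale (limma, adjusted p = 6.33e-05, all 3 Runx1KO libraries above all 3 ZebDKO libraries). Over the 17 alternatives the difference ran from 0.46 to 0.76 and the adjusted p from 9.56e-06 to 0.000602. Pdgfa was lower in Runx1KO than in ZebDKO cells, by -0.17 (adjusted p = 0.0088, all 3 Runx1KO libraries below all 3 ZebDKO libraries), and from -0.32 to -0.14 over the alternatives, with an adjusted p of 0.000472 to 0.0349. The cause of either difference was not tested.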

How the results depend on the processing

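Of the 10 genes, 2 were called in Runx1KO cells (Fgfr1 and Pdgfc), 1 in ZebDKO cells (Pdgfc) and 0 between both knockouts, where 0 were also called with any other scaling and 1 (Fgfr2) with a limit of 1.3-fold, which called 51.9% of all genes; at an adjusted p under 0.05, 2 of the 3 tested differed there, beside 50.2% of all genes higher and 29.8% lower. In Runx1KO cells a filter of 5 TPM left 1, since Fgfr1 no longer entered, and a limit of 1.3-fold gave 4, with 37.2% of all genes called. In ZebDKO cells a pseudocount of 0.1 gave 4, a pseudocount of 0.5 gave 2, and a limit of 1.3-fold gave 6, where 19.1%, 17.2% and 52% of all genes were called. Leaving out 1 library at a time kept the counts at 2, 1 and 0. The replicate block gave 2, 1 and 0 as well. Same-numbered libraries did not deviate together (correlations of their deviations from -0.05 to 0.04), so the numbers were not taken as pairs. The sign of the difference in Pdgfc between both knockouts turned to -0.074 with quantile normalization. A filter on the mean over all 9 libraries was chosen after seeing the data and changed none of the 3 counts. Of the peak counts, closing regions with a Runx peak lay near 2 genes, in place of 5, both for peaks in or within 20 kb of the gene and for an overlap of at least 50%; opening regions lay near 3 in place of 6 within 20 kb, and those with a Runx peak near 0 in place of 1 at 50% overlap. The tables keep no depth, and what can be said of genes under 1 TPM is limited by the table's rounding to steps of 0.1 TPM.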
